A study of Drosophila melanogaster with 24 samples.

Results

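The broad locus (br, locus tag Dmel_CG11491) was followed through 7 lists of peaks from the Drosophila wing. Its members were all peaks that overlap X:1400000-1560000, a window of 160 kb taken to hold br and its control region, after peaks of all lists that overlap by at least 1 bp had been merged into regions. This gave 107 regions of the 54832 in the whole series. The window was taken with results of these data in view, its members being chosen by position around a gene selected on the pileup of its wild-type peaks at the third larval instar (L3) and on their absence later. For this reason its L3 peaks and the contrast of L3 with later wild-type wings are given here as a description with no test. Comparisons of mutant with wild type at 24 h and 44 h use the same wild-type pupal values and are a description too. The positions are those of the peak lists, which per the labels follow the build dm3. No annotation of that build was used, so the placing of br in this window was not checked, and whether a region is exonic, intronic or upstream was not analysed here. In a gene table of Release 6, from which only names and order were taken, br overlaps Mur2B, with inc before it and dor after it.

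The series compares wings of E93 mutant and wild-type flies at 3 stages. E93 mutant wings came from E93-4/Df(3R)93FX2 animals, which carry a mutant allele over a deficiency, and wild-type wings from w1118/y,w, hs-FLP; +; + animals. For both genotypes wings of females were taken at L3, at 24 h and at 44 h after puparium formation (APF), at least 40 wings a sample, with 2 replicates of each mutant stage and 3 of each wild-type stage. Binding of E93 was mapped at 24 h APF by chromatin immunoprecipitation (ChIP-seq, 2 replicates, at least 700 wings of males and females) in yw/+; +; Mi{MIC}Eip93F/+ animals, in which E93 carries a GFP tag (E93-GFSTF) on 1 of its copies. Genomic DNA of OregonR adult virgin females was the control, and the RNA-seq samples were not analysed here.

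FAIRE-seq sequences DNA that escapes crosslinking to nucleosomes, so a peak marks open chromatin such as an active enhancer or promoter. The gene br encodes a family of transcription factors that share a BTB domain and differ in their zinc fingers through alternative splicing. It is an early target of the steroid hormone ecdysone and is needed for the switch of larval tissues, the wing disc among them, to the pupal programme. E93, encoded by Eip93F, is itself an ecdysone-induced transcription factor that acts later, in pupal development.

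Each list holds the pooled replicates of its condition, so no value below has a replicate error, no test between conditions could be made, and the intervals given are exact 95% binomial (Clopper-Pearson) intervals that cover counting error only. The strength of a peak is its pileup, the height of read coverage at the summit, given with its position in its own list (the top 1% being the strongest peaks). Read numbers behind the lists, estimated from the pileup scale and the control, were 5.44 M, 4.67 M and 2.79 M for the mutant at L3, 24 h and 44 h, against 9.57 M, 17.5 M and 14.5 M for wild type and 20.6 M for ChIP-seq, with M for mega. The part of depth in missing peaks was not tested. Divided by the list median that is used for scaling below, the weakest peak stood at 0.26, 0.23 and 0.20 in the mutant lists. In the wild-type lists it stood at 0.27, 0.25 and 0.23. These values are the lowest called peaks and do not show how fully a list detects peaks of a given height. The strongest peak had a pileup of 211, 211 and 204 in the mutant lists at L3, 24 h and 44 h, against 237, 137 and 172 in wild type. The list medians used for scaling were 50, 52 and 41 in the mutant, against 75, 82.8 and 89.3 in wild type. Scaled heights thus had a lower ceiling in the wild-type pupal lists, and its part in the ratios below was not tested. Against the labels, which were followed, the names inside the mutant L3 list point to the start of pupariation. The names inside the wild-type L3 list speak of a top selection, yet no other list is longer. The title of this list also lacks the words on removed PCR duplicates that the titles of the other FAIRE-seq lists carry. Whether its duplicates were handled otherwise was not tested.

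The br window was densely open at L3. It held 67 peaks in the E93 mutant at L3 and 97 in wild type, or 41.9 and 60.6 peaks per 100 kb, where the X chromosome as a whole had 22.5 and 32.0 per 100 kb. In the mutant the window still held 54 peaks at 24 h and 43 at 44 h, which is 33.7 and 26.9 per 100 kb against 21.0 and 18.5 on the X chromosome. In wild type it held 32 and 30 peaks, 20.0 and 18.7 per 100 kb, below the 23.5 and 23.1 of the X chromosome. Open chromatin covered 30.3, 24.9 and 18.7 kb of the window in the mutant at L3, 24 h and 44 h, against 39.3, 14.8 and 12.0 kb in wild type. The mutant lists thus had more peaks in the window at both pupal stages than the wild-type lists, although they had fewer peaks in all (26239 against 29731 at 24 h, and 22786 against 28684 at 44 h).

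**Figure D1:**
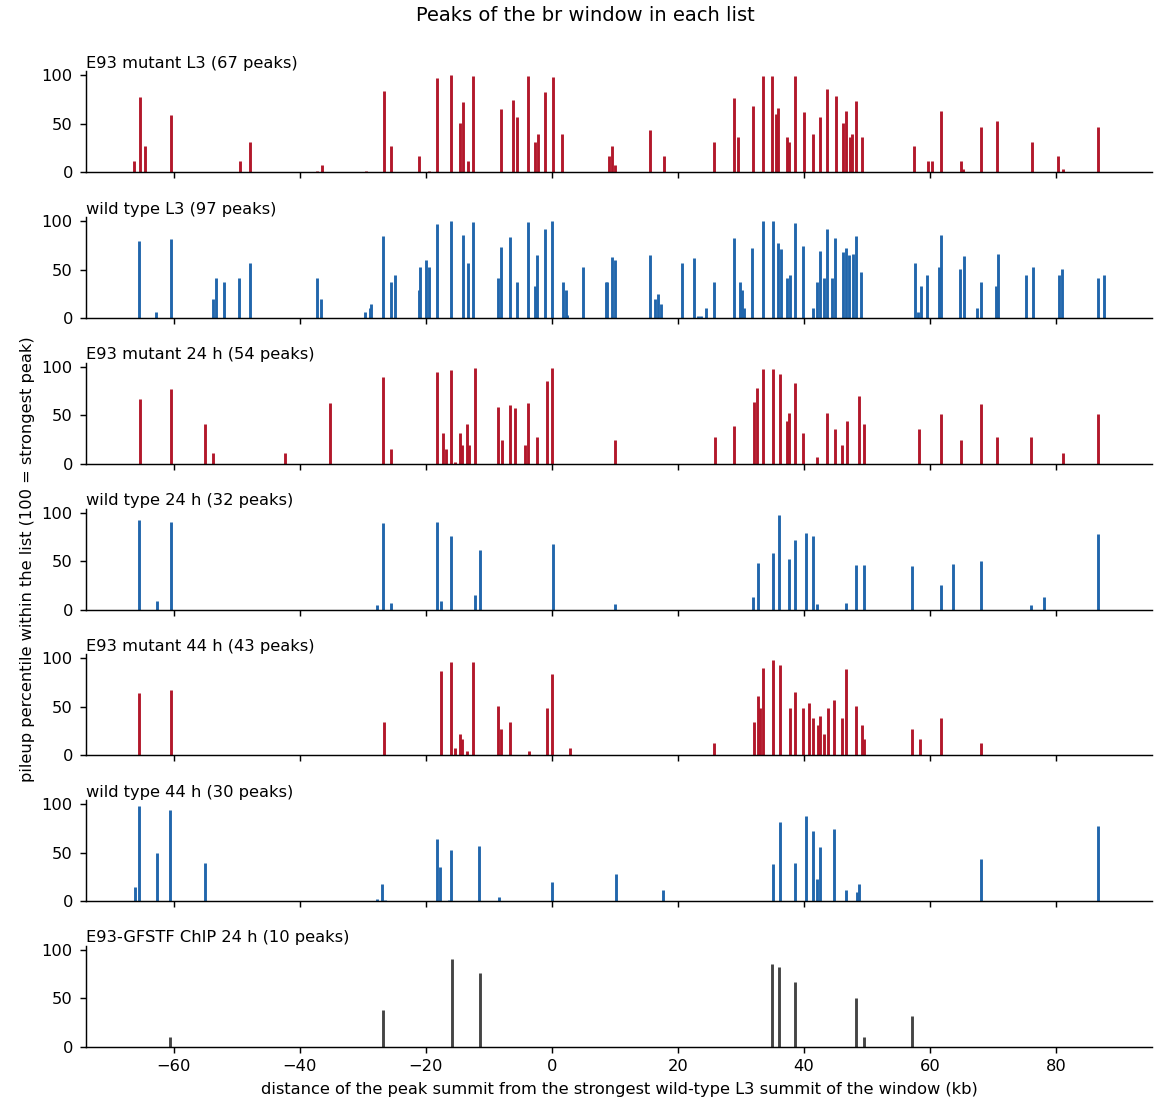
Peaks of the br window in the 7 lists. Each line is 1 peak, placed by the distance of its summit in kb from the strongest wild-type L3 summit of the window, and its height is its pileup percentile within its own list. Tall lines near -18 to 0 kb and 33 to 39 kb are present in both genotypes at L3, and most of them stay tall in the mutant at 24 h and 44 h, while the wild-type rows hold 32 and 30 peaks at these stages.

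Of the 107 regions, 92 held a wild-type L3 peak (86.0%, against 67.8% of all regions of the series). Among wild-type lists alone, 63 regions were open at L3 only (58.9%, against 28.0%) and 19 at all 3 stages (17.8%, against 26.9%). A further 7 were open at L3 and 24 h (6.54%, against 8.35%) and 3 at L3 and 44 h (2.80%, against 4.52%). Few regions opened later, with 3 at 24 h only (2.80%, against 7.13%), 3 at 44 h only (2.80%, against 9.85%) and 1 at both (0.935%, against 7.44%). The mutant alone had a peak in 8 regions (7.48%, against 7.56%), with pileups of 12 to 37. A peak in all 6 FAIRE-seq lists was found in 14 regions (13.1%, against 20.3%). In the wild-type lists its regions thus divided into a large group seen only at L3 and a smaller group seen throughout. The locus was singled out by this contrast, so nothing is read from it. Of the 63 regions open at L3 only, 32 had a peak in no other FAIRE-seq list, the mutant L3 list included. These are 29.9% of the 107 regions, against 16.5% of all regions.

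The genotypes were alike at L3. Of the 67 mutant L3 peaks, 61 met a wild-type L3 peak (91.0%, interval 81.5% to 96.6%), where 87.6% of the whole mutant list did. In the other direction 59 of 97 wild-type peaks met a mutant peak (60.8%, interval 50.4% to 70.6%), against 61.3% of the whole list. To compare heights, each pileup was divided by the median of its list over the 11151 regions with a peak in all 6 FAIRE-seq lists. The scaled log2 ratio of mutant to wild type at L3 had a median of -0.04 over the 54 regions with both peaks, between -0.68 and 0.58. No region was past 2-fold in either direction, where 0.0794% of all shared regions were at least 2-fold higher in the mutant and 0.106% at least 2-fold lower.

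By 24 h more of the larval peaks were missing in wild type than in the mutant. In the mutant, 52 of the 97 wild-type L3 peaks had no 24 h peak (53.6%, interval 43.2% to 63.8%), where 46.6% of the whole list had none. In wild type 70 of the 97 had no 24 h peak (72.2%), where 47.1% of the whole list had none. At 44 h the mutant had no peak at 60 of the 97 (61.9%, interval 51.4% to 71.5%, against 55.4% of the list), and wild type had none at 73 (75.3%, against 52.9% of the list). The wild-type values belong to the contrast that singled out the locus and nothing is read from them. The mutant's own L3 peaks were missing from its 24 h list in 25 of 67 cases (37.3%, against 32.6%) and from its 44 h list in 33 of 67 (49.3%, against 43%).

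**Figure D2:**
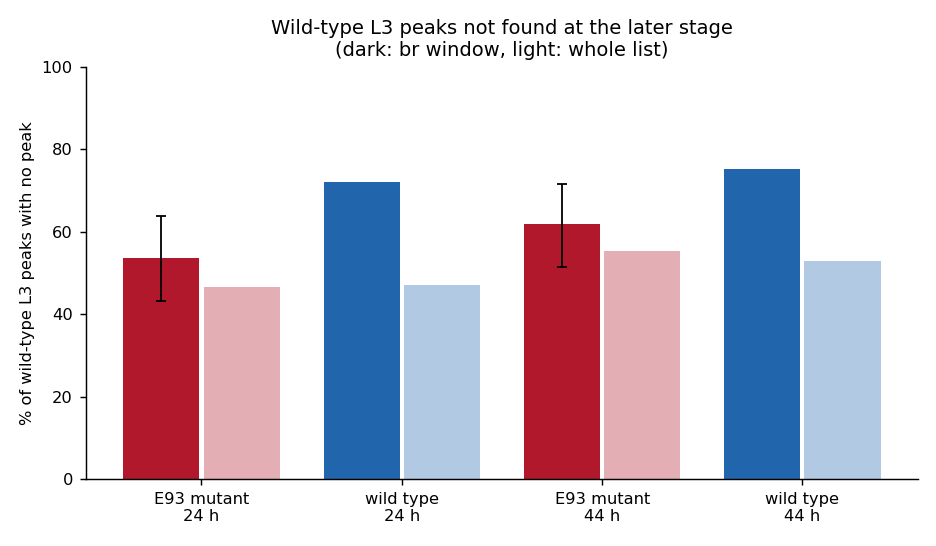
Share of wild-type L3 peaks (y axis, %) with no overlapping peak in the list named on the x axis, for the E93 mutant (red) and wild type (blue) at 24 h and 44 h. Dark bars are the 97 peaks of the br window, with exact 95% intervals for counting error on the mutant bars, and light bars are all 39525 peaks of the list. The dark wild-type bars stand at 72.2% and 75.3%, above 53.6% and 61.9% in the mutant.

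The largest 24 h ratios of mutant to wild type were at the strongest larval regions. The 8 regions with a wild-type L3 peak in the top 5% of that list, called elements 1 to 8 here in order of position, fall into a group of 5 within 19.7 kb and a group of 3 within 6.76 kb, 31.7 kb apart. All 8 were also in the top 5% of the mutant L3 list, and 6 of them were in the top 1% in wild type. They are described in turn, with pileups and the position in each list.

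Element 5 (X:1472044-1473164) held the strongest wild-type L3 peak of the window. Its pileups were 126, 129 and 59 in the mutant at L3, 24 h and 44 h, the top 1.70%, 1.46% and 16.6% of their lists. In wild type they were 185, 70.1 and 32.8, the top 0.159%, 32.5% and 80.6%. It thus stayed among the strongest peaks of the 24 h list in the mutant and stood outside the top 20% in wild type.

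Element 2 (X:1455578-1457593) had 149, 120 and 91 in the mutant, the top 0.120%, 2.79% and 4.08%, against 181, 81.6 and 56.5 in wild type, the top 0.240%, 24.1% and 47.0%. Element 7 (X:1506707-1507821) had 134, 124 and 101 in the mutant, the top 0.890%, 2.10% and 2.14%, against 177, 58.5 and 43.2 in wild type, the top 0.387%, 42.0% and 61.3%. Both kept a place near the head of all 3 mutant lists.

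Element 3 (X:1459557-1461572) had 145, 130 and 92 in the mutant, the top 0.220%, 1.33% and 3.88%, against 175, 62.5 and 61.4 in wild type, the top 0.481%, 38.6% and 43.1%. Element 6 (X:1504909-1506582) had 146, 122 and 73 in the mutant, the top 0.188%, 2.44% and 9.90%. In wild type it had 179 and 48.6 at L3 and 24 h, the top 0.304% and 52.3%, and no peak at 44 h. In these 2 elements the base of the L3 summit lay in a mutant 24 h peak but in no wild-type 24 h peak. Element 3 had 1 mutant 24 h peak, with its summit 330 bp from the L3 summit, against 2 in wild type, the stronger with its summit at 1092 bp and a weaker one of pileup 30.7 at 312 bp. Element 6 had 2 mutant 24 h peaks, of pileup 122 at 20 bp and of 59 at -887 bp, against 1 in wild type, of 48.6 at -853 bp. The wild-type peak of element 6 thus overlaps the weaker mutant peak and not the stronger one.

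Element 4 (X:1467924-1469470) had no wild-type peak at 24 h or 44 h. It had pileups of 145, 37 and 11 in the mutant at L3, 24 h and 44 h, the top 0.220%, 37.5% and 95.7%, against 174 in wild type at L3, the top 0.524%. No mutant pupal list lacked a peak at any of the 8 elements (0.0994% of all top 5% L3 peaks had none at 24 h and 1.79% at 44 h), whereas wild type lacked 1 at 24 h (0.795%) and 2 at 44 h (7.6%). At element 4 the mutant 24 h peak stood at -2.03 relative to the mutant L3 peak on the scaled log2 scale. The 44 h peak in the mutant did not contain the L3 summit.

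Element 8 (X:1510575-1511672) had 133, 70 and 34 in the mutant, the top 0.985%, 16.9% and 34.9%, against 157, 75.9 and 43.9 in wild type, the top 1.95%, 28.1% and 60.3%. Element 1 (X:1453486-1455421) had 120, 108 and 66 in the mutant, the top 2.47%, 5.20% and 12.9%, against 148, 103.6 and 71.1 in wild type, the top 2.79%, 9.86% and 36.2%. Of the 7 elements with a 24 h peak in both genotypes, these 2 had the lowest ratios of mutant to wild type.

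**Figure D3:**
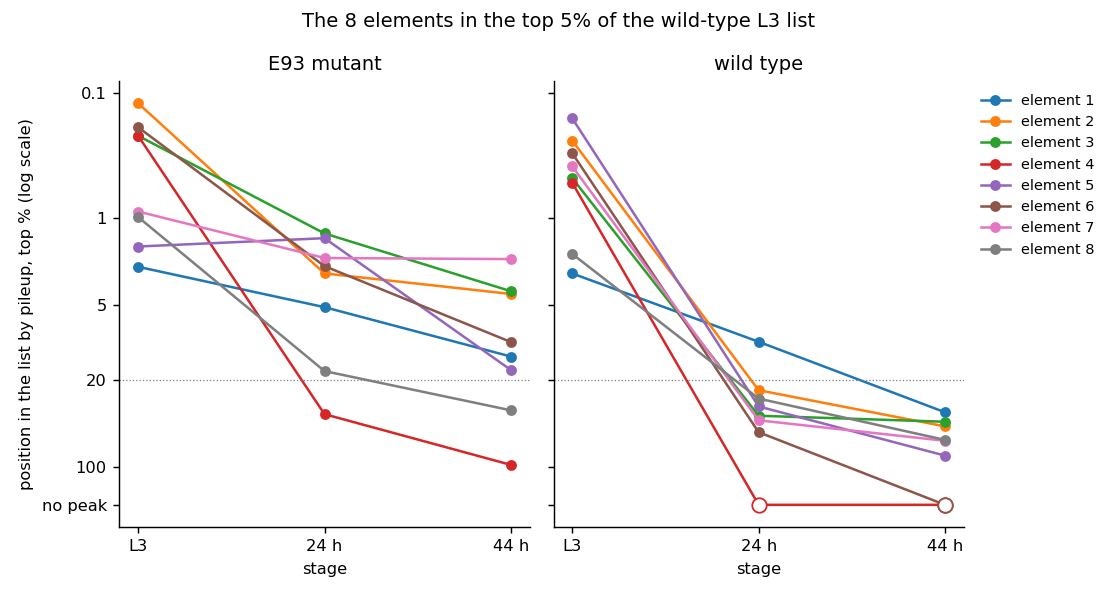
Position of the 8 elements in each FAIRE-seq list (y axis, top % by pileup on a log scale, strongest at the top) by stage (x axis), in the E93 mutant (left) and wild type (right). Open circles mark stages with no peak and the dotted line marks the top 20%. At 24 h 7 mutant points are above the line, against 1 wild-type point.

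Counted together, 1 of the 8 elements was outside the top 20% of the mutant 24 h list or absent from it, against 7 of 8 in wild type, where 4.44% and 14% of all 1982 top 5% L3 regions were. At 44 h it was 2 of 8 in the mutant and 8 of 8 in wild type, against 20.6% and 31.6%. On the scaled log2 scale, the 24 h pileup relative to L3 of the same genotype had a median of -0.26 over the 8 elements in the mutant and of -1.54 over the 7 with both peaks in wild type. The medians over all top 5% regions were -0.09 and -0.63, and the elements stood below them in both genotypes. The lower ceiling of the wild-type pupal lists enters the wild-type values, and its part in them was not tested. At 44 h the medians were -0.64 in the mutant and -2.01 over 6 elements in wild type, against -0.15 and -0.62. At least 2-fold below L3 were 1 of 8 elements in the mutant (2.42% of all such regions) and 6 of 7 in wild type (11.3%) at 24 h, and 2 of 8 (15.3%) and 6 of 6 (23.3%) at 44 h.

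Set against each other at the same stage, the mutant stood higher at the elements. The wild-type pupal pileups that divide the ratios below belong to the contrast that singled out the locus. The excess of these ratios over the series is therefore a description, and nothing on genotype is read from it. At strong mutant peaks the lower ceiling of the wild-type pupal lists also keeps the ratio from falling far. Its part in the medians and counts below was not tested. At 24 h the ratio of mutant to wild type had a median of 1.55 on the scaled log2 scale over the 7 elements with both peaks, against 0.72 over all 1966 such regions of the series, with 5 of the 7 at least 2-fold higher (10.1% of all) and 0 at least 2-fold lower (0.0509%). At 44 h the median over 6 elements was 1.76, against 0.69, and 5 of 6 were at least 2-fold higher (13.6%). Subtracting the background level of each list before scaling gave 1.68 and 1.92. Without element 6, where the ratio is between peaks that do not overlap, the 24 h median was 1.39 and 4 of 6 were at least 2-fold higher (10% of all). The largest 24 h ratios of the whole window were those of element 6 (2.00, between peaks apart), element 7 (1.76), element 3 (1.73), element 5 (1.55) and element 2 (1.23).

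Over all regions of the window with a peak at both stages, 1 of 36 was at least 2-fold higher at 24 h than at L3 in the mutant (3.33% of all) and 5 were at least 2-fold lower (4.3%), against 2 (5.43%) and 8 (6.43%) of 26 in wild type. At 44 h it was 2 (6.57%) and 7 (10.7%) of 31 in the mutant, against 2 (8.41%) and 9 (9.82%) of 22 in wild type. Between genotypes, over all regions of the window with a peak in both, the ratios were spread out. At 24 h the median was 0.41 over 24 regions, against 0.10 over all 18006 shared regions, with 6 regions at least 2-fold higher in the mutant (4.34% of all) and 1 at least 2-fold lower (5.28% of all). Element 6 and the 1 region called lower are the only ones whose strongest 24 h peaks share no base (2.96% of all), and the other 22 had 5 higher (4.34%) and 0 lower (5.2%). At 44 h the median was 0.70 over 19 regions, against 0.06 over all 16464, with 7 at least 2-fold higher (5.17%) and 1 at least 2-fold lower (8.5%). The largest at 44 h was 2.38 at X:1518270-1519898, where the mutant pileups were 35, 26 and 70 at L3, 24 h and 44 h, against 51, 27.2 and 29.3 in wild type.

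**Figure D4:**
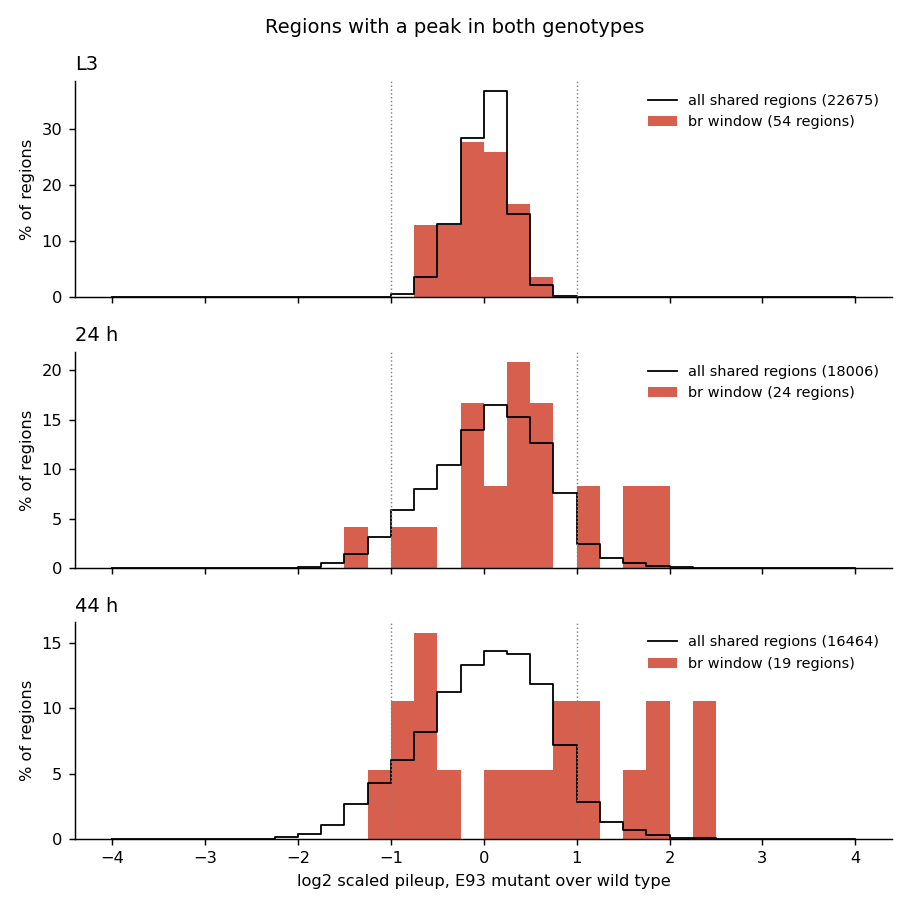
Scaled log2 ratio of pileup, E93 mutant over wild type (x axis), at L3, 24 h and 44 h, as a share of regions (y axis, %) with a peak in both genotypes. Bars are the br window (54, 24 and 19 regions), the line is all shared regions, and dotted lines mark 2-fold. The bars stay within 2-fold at L3 and reach 2.00 at 24 h and 2.38 at 44 h.

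The lowest ratios are given as values, since under this scaling the share of regions at least 2-fold lower was no higher in the window than in the series. By pileup percentile it was higher at 24 h (5 of 24, against 15.6%). With the background subtracted it was higher at 44 h (3 of 19, against 10.8%). The lowest ratio at 24 h was -1.29 at X:1512025-1513582, with mutant pileups of 34, 22 and 26 at L3, 24 h and 44 h, against 55, 85.7 and 112 in wild type. There the wild-type 24 h peak overlaps neither the mutant 24 h peak nor the wild-type L3 peak, so separate peaks joined by merging were compared. At X:1558919-1559157 the ratio was -0.88, with 26 and 29 in the mutant at L3 and 24 h and no 44 h peak, against 32, 85.1 and 92.8 in wild type. At X:1406778-1407599 it was -0.67, with 54, 42 and 33 in the mutant, against 65, 107 and 137 in wild type, where the 44 h peak was in the top 1.80% of its list. The next lowest were -0.24 at X:1521778-1522065 and -0.20 at X:1411579-1412144. X:1513685-1514063, chosen after its values were seen, had no mutant 24 h peak and a ratio of -1.03 at 44 h, with 24 and 19 in the mutant at L3 and 44 h, against 25, 82.2 and 84.4 in wild type at L3, 24 h and 44 h.

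Few peaks of the window were pupal only in wild type. Of 32 wild-type 24 h peaks, 5 had no wild-type L3 peak (15.6%, against 29.2% of the list), and 1 of the 5 met a mutant 24 h peak (25% of all such peaks did). Of 30 wild-type 44 h peaks, 4 had no L3 peak (13.3%, against 34.9%), and 0 of the 4 met a mutant 44 h peak (interval up to 60.2%, against 29.2%). In both cases the share met in the mutant is near or within the counting error of that over the series. Of the 5, X:1512578-1513582 had a pileup of 85.7 (the top 21.3%), and the other 4 and the 4 peaks of 44 h had 24.4 to 48.1.

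Larval regions without a wild-type peak at a pupal stage but with a mutant peak there were the reverse case. At the level of peaks, 21 of the 70 wild-type L3 peaks with no wild-type 24 h peak met a mutant 24 h peak (30%, interval 19.6% to 42.1%), against 21.1% of the list. At 44 h it was 16 of 73 (21.9%, interval 13.1% to 33.1%), against 13.6%. Seen from the mutant, 30 of its 54 peaks at 24 h had no wild-type 24 h peak (55.6%, interval 41.4% to 69.1%, against 23.6% of the list), and 26 of those 30 lay on a wild-type L3 peak (86.7%, against 68%). At 44 h 23 of 43 had no wild-type counterpart (53.5%, interval 37.7% to 68.8%, against 19.6%), and 20 of the 23 lay on an L3 peak (87.0%, against 71.9%).

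As regions, 66 larval regions had no wild-type 24 h peak and 17 of them had a mutant 24 h peak, against 3615 of 17811 in the series. At 44 h, 70 had no wild-type peak and 16 of them had a mutant 44 h peak, against 2539 of 19910 in the series. Of the 63 regions open in wild type at L3 only, 9 were open in the mutant at both pupal stages (14.3%, against 3.74% of the 15333 such regions of the series). The regions kept at 24 h had a median wild-type L3 pileup of 45 (from 27 to 174), against 31 (up to 48) for those not kept. In the mutant at 24 h their pileups were 17 to 76, and the median region stood in the top 64.6% of the list, so most were weak peaks.

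After element 4, the strongest of the 17 kept at 24 h was X:1471029-1471942, beside element 5. It had mutant pileups of 63, 76 and 23 at L3, 24 h and 44 h, the top 17.4%, 14.4% and 51.6%, against 112 in wild type at L3 and no later wild-type peak. The next, X:1515854-1516596, had 72, 30 and 23 in the mutant, against 110 in wild type at L3 only. X:1457739-1458634 had 45, 22 and 15 in the mutant, against 84 in wild type at L3 only. X:1465616-1466744 had 48, 35 and 18 in the mutant, against 77 in wild type at L3 only. All 4 were open at all 3 mutant stages. At 24 h the first of them had more pileup in the mutant than element 4, which lies beside it, and less than element 5 on its other side.

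X:1517124-1517789 had 55, 23 and 28 in the mutant, against 75 at L3 and 87.2 at 44 h in wild type, so its wild-type 24 h gap was flanked by peaks. X:1501133-1502140 had 51 and 24 in the mutant at L3 and 24 h, against 73 in wild type at L3. X:1464292-1464726 had 37, 20 and 16 in the mutant, against 54 in wild type at L3. The remaining 2 of the 10 strongest, X:1543060-1543282 and X:1470051-1470340, had 21 each in the mutant at 24 h, against 45 and 44 in wild type at L3, and the other 7 regions had L3 pileups of 27 to 43 in wild type. Among the 16 regions kept at 44 h element 6 led with a mutant pileup of 73, the top 9.90%. X:1534050-1534403 and X:1504025-1504722 were kept at 44 h but had a wild-type 24 h peak, with mutant 44 h pileups of 19 and 18, against wild-type L3 pileups of 83 and 52. The others of the 10 strongest at 44 h are among those already given or are X:1458943-1459205, with 11 in the mutant at 44 h, against 38 in wild type at L3.

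E93-GFSTF peaks were present at 10 of the 107 regions (9.35%, against 13.6% of all regions and 9.44% of those on the X chromosome). This was 6.25 peaks per 100 kb, against 4.83 on the X chromosome. None was in the top 5% of the ChIP-seq list. The ChIP-seq wings came from both sexes, and the effect of this on peaks of the X chromosome was not tested. The strongest was at element 2, with a pileup of 67.6 (the top 9.73%), followed by element 7 with 60.2 (14.8%), X:1507993-1509935 with 56.7 (17.9%), element 3 with 51.8 (23.5%) and element 8 with 45.4 (32.9%). The other 5 were X:1520515-1521287 with 37.97, X:1445360-1446478 with 34.5, X:1529474-1530307 with 33.0, and X:1411579-1412144 and X:1521778-1522065 with 28.1 each. Thus 4 of the 8 elements had an E93-GFSTF peak and 4 (elements 1, 4, 5 and 6) had none. This share was not computed over all top 5% L3 regions, so nothing is read from it. The base of the L3 summit lay in no ChIP-seq peak at 5 of the 8, against 41.8% of all 2013 top 5% L3 peaks. At element 3 the ChIP-seq summit was 1124 bp from the L3 summit and within 100 bp of the wild-type 24 h and 44 h summits. All 10 ChIP-seq peaks met a wild-type 24 h FAIRE-seq peak (95.8% of the whole list did) 9 of 10 met a mutant 24 h peak (86.2%) and 10 of 10 a mutant 44 h peak (78.8%).

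E93-GFSTF peaks were seldom found on larval regions without a wild-type 24 h peak, in the window as in the series. They were at 0 of the 17 regions kept at 24 h (interval up to 19.5%, against 1.88% of such regions of the series) and at 0 of the 66 larval regions without a wild-type 24 h peak (interval up to 5.44%, against 0.539%). Of the 70 larval regions without a wild-type 44 h peak, 1 had a ChIP-seq peak (1.43%, against 4.95%). It was also the only 1 of the 16 regions kept at 44 h (6.25%, against 20.7%). In the series this kept class thus had ChIP-seq peaks more often than all regions did (13.6%). The 1 region of the window was X:1529474-1530307, where the mutant 44 h peak and the ChIP-seq peak overlap each other but not the wild-type L3 peak. With 95.8% of ChIP-seq peaks on open wild-type regions of 24 h, a low count on regions closed at 24 h follows from the class itself. Among regions with a peak in both genotypes at 24 h, the 9 with a ChIP-seq peak had a median ratio of mutant to wild type of 0.56 (from -0.24 to 1.76), and the 15 without had 0.26 (from -1.29 to 2.00). In each set 3 regions were at least 2-fold higher in the mutant, where 4.34% of all shared regions of the series were. The share was not computed by set over the series, and the ranges of the 2 sets overlap widely.

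The region X:1507993-1509935, between elements 7 and 8, was the only 1 of the window in the top 5% of the wild-type 24 h list (pileup 118, the top 2.35%). Its pileups were 38, 98 and 81 in the mutant at L3, 24 h and 44 h, against 61, 118 and 101 in wild type, so both genotypes were higher at 24 h than at L3, by 1.31 in the mutant and 0.81 in wild type on the scaled log2 scale. Its ratio of mutant to wild type was 0.40 at 24 h and 0.80 at 44 h, close to the 0.56 and 0.75 of element 8 and below the 1.76 and 2.35 of element 7. At X:1445360-1446478, which also had an E93-GFSTF peak, the 24 h value was again the highest of the 3 pileups in both genotypes, with 65, 88 and 18 in the mutant, against 82, 102 and 32.1 in wild type.

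The order of heights across the window is given as a description. Its wild-type pupal values belong to the contrast that singled out the locus, so nothing is read from their low rho. Across the 23 regions with all of these peaks, the mutant 24 h pileup had a Spearman rho of 0.85 with wild-type L3 and of 0.55 with wild-type 24 h, where the values over all 16064 such regions were 0.78 and 0.74. At 44 h, over 19 regions, rho was 0.68 with wild-type L3 and 0.16 with wild-type 44 h, against 0.67 and 0.73 over all regions. Wild-type L3 itself had a rho of 0.39 with wild-type 24 h and of -0.07 with wild-type 44 h in the window. Over all regions these were 0.60 and 0.47. The regions share libraries and are not independent. The edges of the window were not near strong wild-type L3 peaks. At X:1558919-1559157, close to the high edge, the wild-type pileups were 85.1 and 92.8 at 24 h and 44 h, the top 21.8% and 22.7%. The outermost wild-type L3 peak just inside, X:1559952-1560166, had a pileup of 33, and the nearest outside, X:1399770-1399922 and X:1560281-1560612, had 23 and 26.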

How the data were processed

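Replicates had been pooled by the authors before peak calling, which left 7 deposited lists. Their pileup column is a deposited coverage signal. Fold enrichment is a deposited ratio over the local background, and the −log10 p-value and −log10 q-value columns come from the authors. The deposited control reads carry a mapping score, which was not used to filter. The submitters' processing notes name the build dm3 and the tools Bowtie2 2.2.8, Picard 2.2.4, SAMtools 1.2 and 1.3.1, bedtools 2.25.0 and MACS2, without settings.

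Members and lists were chosen with earlier results of these data known. Peaks sharing 1 bp or more counted as matched, and a merged region took its strongest peak from each list. Pileups were scaled by the list median over the 11151 regions in all 6 FAIRE-seq lists, and 2-fold was the limit for a call. Named regions were those with a top 5% peak of any FAIRE-seq list, those open at L3, closed in wild type and open in the mutant at 24 h or 44 h (the 10 strongest with values), those with a ChIP-seq peak, and the 5 highest and 5 lowest 24 h ratios. Read numbers were estimated from the step between pileup values, or from the background level common to a list, relative to the 10135847 control reads. The control reads and the gene table reach further along X (23542179 and 23538283) than the furthest peak (22422243), so control reads in the window, peaks per gene and a list of ecdysone pathway genes were not computed. Alternatives were the peak threshold, list size, overlap rule, window, merging distance, scaling and measure. Overlap and merging were tested on simulated lists. Python 3.11.15, numpy 2.4.6, pandas 2.3.3, scipy 1.17.1 and matplotlib 3.10.9 were used.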

Additional observations from a re-analysis of the deposited data

How the results depend on the processing

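Of the recomputed values, 77 stayed within 1.5 times the count or within the counting interval and 22 did not. With a −log10 q of at least 10, which leaves fewer peaks by construction, the window held 27, 25 and 21 mutant peaks at L3, 24 h and 44 h, against 37, 20 and 17 in wild type, in 45 merged regions. With all FAIRE-seq lists cut to the 22786 strongest peaks, wild type had 63 peaks at L3 and 21 at 24 h, and the mutant kept 52.2% at 24 h and 37.8% at 44 h of the larval peaks absent in wild type, where 37.0% and 29.8% of the whole lists were kept. When matched peaks had to share 50% of each other's length, 85.6% and 91.8% of wild-type L3 peaks of the window had no wild-type peak at 24 h and 44 h. This stricter rule leaves fewer matches by construction. Its share over the whole list was not computed, so nothing particular to the window is read from it. Counts past 2-fold moved with the scaling. By pileup percentile, 2 of 54 regions were higher (0.604% of the series) and 9 lower (9.57%) in the mutant at L3, 5 of 24 lower at 24 h (15.6%) and 4 of 19 lower at 44 h (21%). Scaled by the median of all peaks, 0 were lower at 44 h (7.79%), and by fold enrichment 2 were (8.43%). In 2 alternatives chosen after seeing the data, subtracting the common background gave 2 lower at 24 h (8.34%) and 3 at 44 h (10.8%), and leaving out regions whose strongest peaks do not overlap gave 0 lower at 24 h (5.2%). The cause of these shifts in scaling was not tested. Counts of regions at least 2-fold higher in the mutant at 24 h and 44 h stayed within 1.5 times under each of these scalings. No paired analysis was possible because the replicates of a condition were merged into a single list, so no replicate could be left out either. The 2.79 M to 5.44 M reads estimated behind the mutant lists are fewer than those behind wild type, and their effect was not tested.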
